A study of Mus musculus with 8 samples.

Results

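Calcineurin is a phosphatase that calcium and calmodulin switch on, and NFAT proteins are the transcription factors it acts on. It is built from a catalytic A subunit, encoded in the heart mainly by Ppp3ca and Ppp3cb, and a regulatory B subunit encoded by Ppp3r1. Active calcineurin removes phosphates from Nfatc1, Nfatc2, Nfatc3 and Nfatc4, which then enter the nucleus and act with partners such as Gata4. Rcan1 and Rcan2 encode proteins that bind calcineurin and can inhibit it. Rcan1 is itself switched on by NFAT through a downstream promoter, so its transcript is widely read as a sign of calcineurin activity. In heart muscle the pathway is known for driving pathological growth under pressure load.

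These 9 genes were taken by symbol from a table of 17191 genes, chosen as members of the pathway with earlier results of these data known, and all 9 passed the filter on low counts. The mRNA of whole hearts was sequenced as 4 STAT3 S727A libraries and 4 WT libraries, all taken after 4 weeks of transverse aortic constriction (TAC), a banding operation that raises the pressure against which the left ventricle pumps. In S727A mice, STAT3 carries alanine in place of a serine that kinases phosphorylate. All 8 hearts had TAC and all belong to batch 1 of the labels, so the values compare genotypes under load, and hearts without TAC were not analysed here. The sources used here do not give strain, age, sex or the cells that carry the allele. The labels do not name the animal behind each library, so the p-values reflect how these 8 libraries vary, part of which may be technical.

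Total counts ran from 11255613 to 13113680 in the S727A libraries and from 10577636 to 13305143 in the WT libraries. Stat3 mRNA was at 156 to 170 CPM (counts scaled to a common library size) in S727A and 180 to 228 CPM in WT, which does not check the codon change. Y-linked transcripts were nearly absent from S727A 4 and WT 4. Lung and airway transcripts summed to 143 CPM in WT 1 and 51 CPM in WT 4, against 2.42 CPM or less in the other libraries. Markers of heart muscle (8 genes, among them Myh6 and Tnnt2) summed to 81300 to 88100 CPM in S727A and 79600 to 115000 CPM in WT, so the labelled tissue fits its markers.

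Rcan1 and Nfatc2 showed the widest differences between genotypes among the 9 genes, and each is annotated with more than 1 start site. Their start regions are printed to show how the annotated starts differ in NFAT-type motifs. Each sequence is the 250 bases before a RefSeq start on GRCm38.p6, read 5′ to 3′ along the gene, and both genes lie on the minus strand. Capitals mark GGAAA, the core that NFAT proteins bind, or its reverse complement TTTCC.
Rcan1 upstream start, chr16:92466170-92466419: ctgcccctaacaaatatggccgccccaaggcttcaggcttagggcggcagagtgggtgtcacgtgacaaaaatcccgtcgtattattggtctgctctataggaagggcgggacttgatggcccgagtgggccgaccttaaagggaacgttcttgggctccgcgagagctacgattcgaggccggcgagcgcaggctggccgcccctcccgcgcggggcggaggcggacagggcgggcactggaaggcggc
Rcan1 downstream start, chr16:92400079-92400328: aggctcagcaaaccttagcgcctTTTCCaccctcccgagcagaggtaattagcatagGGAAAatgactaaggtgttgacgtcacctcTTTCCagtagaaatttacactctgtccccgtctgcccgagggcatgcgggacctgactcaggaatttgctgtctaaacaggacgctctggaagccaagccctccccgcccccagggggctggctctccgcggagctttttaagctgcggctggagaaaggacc
Nfatc2 upstream start, chr2:168601658-168601907: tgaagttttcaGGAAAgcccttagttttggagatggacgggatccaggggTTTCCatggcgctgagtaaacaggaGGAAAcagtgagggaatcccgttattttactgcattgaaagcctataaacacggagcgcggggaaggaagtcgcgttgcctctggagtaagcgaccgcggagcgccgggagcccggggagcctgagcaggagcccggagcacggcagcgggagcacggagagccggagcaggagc
Nfatc2 downstream start, chr2:168590366-168590615: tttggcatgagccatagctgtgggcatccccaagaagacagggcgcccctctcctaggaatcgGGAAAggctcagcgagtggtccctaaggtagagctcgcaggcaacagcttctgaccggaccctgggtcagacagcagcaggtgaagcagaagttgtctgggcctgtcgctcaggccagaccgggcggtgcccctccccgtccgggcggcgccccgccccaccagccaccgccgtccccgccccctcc

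The downstream Rcan1 region held 3 matches to GGAAA on either strand, and the upstream Rcan1 region held 0. Among 32851 start regions of the same length, 55.57% held at least 1 match and 6.39% at least 3. The downstream region also held 1 match to TGACTCA, the AP-1 element, which 4.46% of regions held. For Nfatc2 the upstream region held 3 matches to GGAAA and the downstream region 1. TTCNNNGAA, the element that STAT proteins bind, was searched on both strands and had 0 matches in any of the 12 regions found for 7 of the 9 genes, while 7.02% of all regions held it. No region was found for Ppp3ca and Nfatc1. GGAAA and TTCNNNGAA both hold GAA and so can share letters. A match is a description of letters, not a binding site.

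Levels that can be set side by side between genes come from the deposited FPKM values, which divide reads by gene length and library size. Rcan2 had the highest level, at 202 ± 9.29 FPKM in S727A and 214 ± 6.53 FPKM in WT (mean ± SD, n = 4 each, as for all means here). Rcan1 came next and calcineurin subunits after it, and the NFAT genes had the lowest levels. The order Rcan2, Rcan1, Ppp3r1, Ppp3cb, Ppp3ca, Nfatc1, Nfatc3, Nfatc2, Nfatc4 was the same in all 8 libraries. Across libraries the ranges of Ppp3r1 and Ppp3cb overlapped, as did those of Ppp3cb and Ppp3ca, of Nfatc1 and Nfatc3, and of Nfatc3 and Nfatc2, while the other neighbours were apart.

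**Figure D1:**
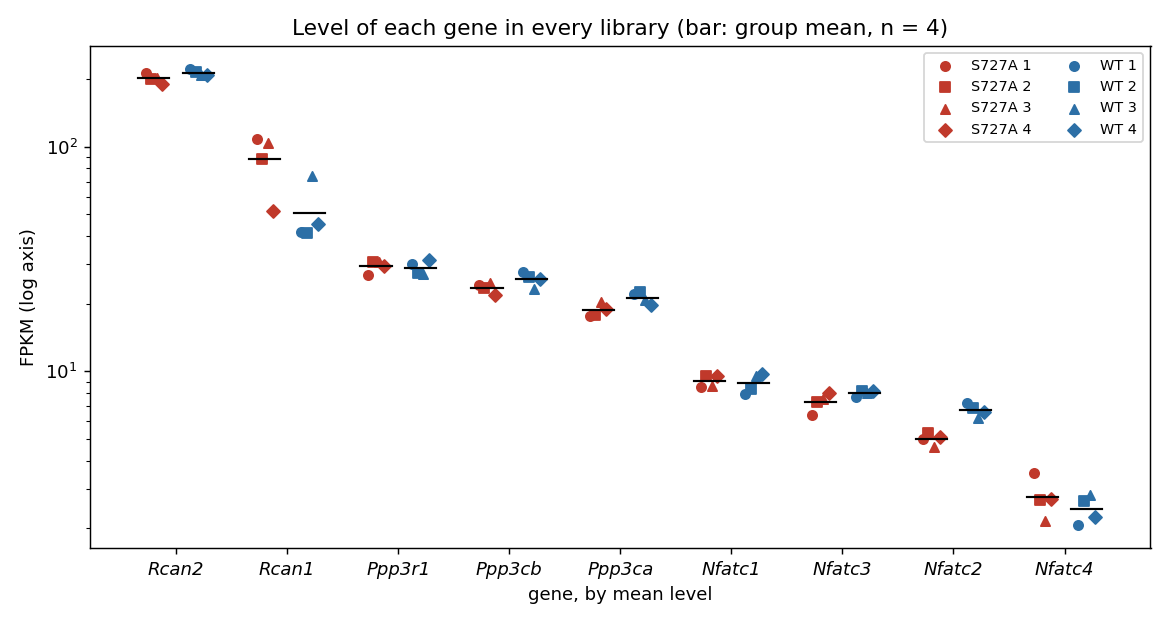
FPKM of each gene on a log axis, with 1 point per library (S727A in red on the left, WT in blue on the right) and a bar at the group mean. Rcan1 spans 41.12 to 108.63 FPKM over the 8 libraries, and for Nfatc2 alone all S727A points lie below all WT points.

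Between genotypes, counts were compared with edgeR's quasi-likelihood test over 12998 genes, with a gene passing at an adjusted p under 0.05. None of the 9 genes passed, where 0.146% of all tested genes did (0.0462% as higher in S727A and 0.1% as lower). At an unadjusted p under 0.05 there were 2 of the 9, Rcan1 higher and Nfatc2 lower, where 17.8% of all tested genes reached it. DESeq2 passed Rcan1 and Nfatc2, where it passed 2.2% of genes as higher and 1.91% as lower (4.11% in all), and limma voom passed 0, with 0.0462% of genes. The authors' deposited table likewise lists these 2 with q under 0.05, with 1.38% of its genes below that value as higher and 1.24% as lower (2.61% in all). The median log2 fold change of the 9 genes was -0.06 against 0 for all tested genes, with 4 above 0 and 5 below.

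**Figure D2:**
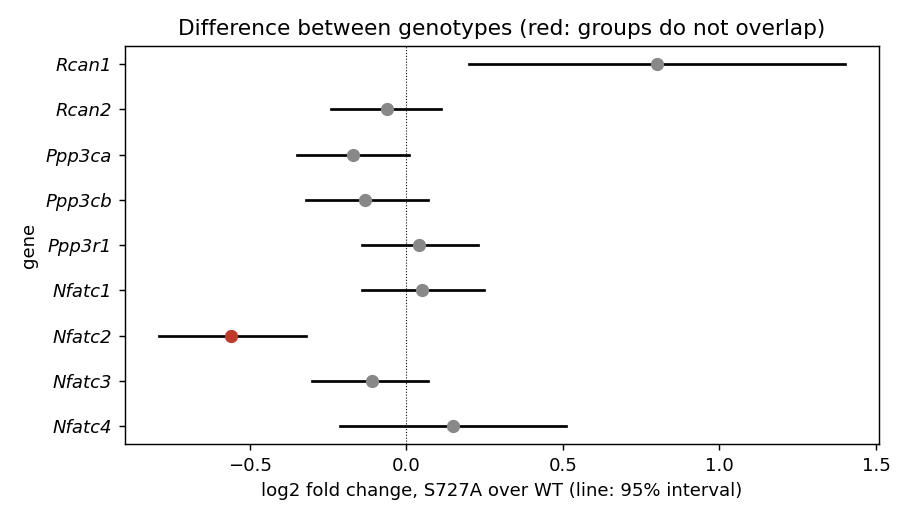
Log2 fold change of S727A over WT for the 9 genes, with 95% intervals from the edgeR fit. Rcan1 lies to the right of 0 at 0.80 and Nfatc2 to the left at -0.56, while the intervals of the other 7 genes include 0.

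Rcan1 (gene 54720, chromosome 16, 92391953 to 92470867, GRCm38), the NFAT-responsive calcineurin regulator, was at 243, 195, 225 and 114 CPM in S727A 1 to 4, against 94.4, 91.9, 160 and 99.3 CPM in WT 1 to 4. S727A 1 to 3 were above every WT library, but S727A 4 was below WT 3, so the groups overlapped. Mean levels were 194 ± 57 CPM for S727A hearts and 111 ± 32.5 CPM for WT hearts (SD, n = 4). The log2 fold change was 0.80 ± 0.26 (SE), with a 95% interval from 0.20 to 1.40, and the difference did not pass over all genes (edgeR adjusted p = 0.182). Whether it passed turned on the tool and on 1 library. DESeq2 gave the same fold change with an adjusted p of 0.0206, and the authors' deposited table lists a log2 ratio of 0.80 with q = 0.0266. Without S727A 4 the log2 fold change was 0.99 (edgeR adjusted p = 0.0288), though 4.71% of all genes passed in that fit. Without WT 3 it was 1.03 and did not pass (edgeR adjusted p = 0.0604).

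Sums of other gene lists are set beside Rcan1 here, and their part in the difference was not tested. Immediate-early genes, a list of 16 stimulus-response genes such as Fos and Egr1, summed to 663, 459, 1140 and 435 CPM in S727A 1 to 4, against 355, 264, 376 and 436 CPM in WT 1 to 4. All 15 of these genes that were tested had a log2 fold change above 0, with a median of 1.14, and 0 passed in edgeR, while 11 were higher at an unadjusted p under 0.05, as were 8.97% of all tested genes. The sum did not follow Rcan1 within the groups. It was highest in S727A 3 among S727A libraries, whereas Rcan1 was highest in S727A 1. Among WT libraries it was highest in WT 4, whereas Rcan1 was highest in WT 3. Fibroblast markers (8 genes, 8 above 0, 0 passing) summed to 2550 to 3280 CPM in S727A and 1640 to 2950 CPM in WT, with S727A 4 lowest in its group and WT 3 highest in its own, as for Rcan1. In whole hearts, more cells of a type cannot be told apart from more RNA per cell.

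Rcan2 (gene 53901, chromosome 17, 43801351 to 44039516), which encodes the second calcineurin inhibitor of the family, was at 720, 673, 665.6 and 623 CPM in S727A 1 to 4, against 737, 712, 674 and 675 CPM in WT 1 to 4. The groups overlapped, and the log2 fold change of -0.06 ± 0.08 (SE) had a 95% interval from -0.24 to 0.11. Rcan1 therefore made up a varying share of the summed Rcan1 and Rcan2 FPKM. That share was 33.72%, 30.46%, 33.87% and 21.36% in S727A 1 to 4, against 15.81%, 16.02%, 26.21% and 17.86% in WT 1 to 4. Summed FPKM of both genes was 290 ± 34.3 in S727A and 264 ± 13.5 in WT (SD, n = 4), which overlap.

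The catalytic and regulatory subunits of calcineurin differed little between genotypes. Ppp3ca (gene 19055, chromosome 3), which encodes the alpha isoform of the catalytic subunit, was at 86.6, 87.0, 97.2 and 89.6 CPM in S727A 1 to 4, against 106, 108, 97.3 and 93.4 CPM in WT 1 to 4. WT 4 was below S727A 3, so the groups overlapped, and the difference was -0.17 ± 0.08 on the log2 scale (SE), with an edgeR adjusted p of 0.31. Ppp3cb (gene 19056, chromosome 14), the beta isoform, needed in mice for a full hypertrophic response, averaged 77.0 ± 3.91 CPM in S727A hearts and 84.1 ± 8.43 CPM in WT hearts (SD, n = 4), or -0.13 ± 0.09 as log2 fold change (SE). Ppp3r1 (gene 19058, chromosome 11), the regulatory subunit, averaged 82.1 ± 4.57 CPM in S727A and 79.6 ± 5.71 CPM in WT, with a log2 fold change of 0.04 and a 95% interval from -0.14 to 0.23. Ppp3r1 overlaps the coding gene Wdr92 on the same strand, so reads of the shared stretch could be counted for either. Neither Ppp3cb nor Ppp3r1 passed in edgeR (adjusted p of 0.485 and 0.819).

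Ratios of FPKM within a library describe the balance between enzyme and regulators, and none was tested. The summed catalytic subunits over Ppp3r1 were 1.562, 1.355, 1.464 and 1.392 in S727A 1 to 4, against 1.658, 1.791, 1.621 and 1.46 in WT 1 to 4. S727A 1 and S727A 3 lay above WT 4, so these ratios overlapped. Rcan1 over summed Ppp3ca and Ppp3cb was 2.587, 2.127, 2.307 and 1.271 in S727A 1 to 4, against 0.841, 0.841, 1.689 and 0.994 in WT 1 to 4. As for Rcan1 alone, WT 3 was above S727A 4.

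Nfatc2 (gene 18019, chromosome 2, 168476410 to 168601657), a factor best known from lymphocytes, was lower in S727A hearts in every library. It was at 23.9, 27.0, 21.1 and 24.6 CPM in S727A 1 to 4, against 40.1, 37.2, 31.3 and 33.7 CPM in WT 1 to 4. The highest S727A library, at 27.0 CPM, was below the lowest WT library, at 31.3 CPM. Such a separation in this direction was seen in 4.36% of all tested genes. The log2 fold change was -0.56 ± 0.11 (SE), with a 95% interval from -0.79 to -0.32, and did not pass over all genes (edgeR adjusted p = 0.0863). Nfatc2 ranked 40 of 12998 by unadjusted p (0.000265). It passed in DESeq2 (adjusted p = 0.00241), and the authors' deposited table lists a log2 ratio of -0.55 with q = 0.00316. With single libraries left out, it passed in edgeR without S727A 4 (adjusted p = 0.0322, with 4.71% of all genes passing) or WT 3 (0.0244, with 2.1% of all genes passing). The other single omissions gave edgeR adjusted p from 0.118 to 0.261. Over all single omissions the log2 fold change stayed between -0.61 and -0.49. Without the WT libraries with airway transcripts the log2 fold change was -0.50 (edgeR adjusted p = 0.435).

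Markers of 3 cell types also had sums that did not overlap between genotypes and were lower in S727A. The sum of B and plasma cell markers was apart in the other direction, which rested on Jchain. The part of these lists in the Nfatc2 difference was not tested. Pericyte markers (6 genes, all 6 tested and below 0, none at 0 counts) summed to 981 to 1240 CPM in S727A and 1290 to 1740 CPM in WT. Smooth muscle markers (5 genes, all below 0) summed to 382 to 419 CPM in S727A and 438 to 669 CPM in WT. Macrophage markers (9 genes, all below 0) summed to 273 to 378 CPM in S727A and 381 to 610 CPM in WT. None of the genes in these 3 lists passed in edgeR, while 5 of the 6, 3 of the 5 and 7 of the 9 had an unadjusted p under 0.05 and were lower, as were 8.79% of all tested genes. T cell markers, of which 1 of 6 passed the filter on low counts, summed to 3.48 to 5.76 CPM in S727A and 5.06 to 8.05 CPM in WT, and overlapped. B and plasma cell markers (5 genes, 2 tested, 1 above 0) summed to 7.92 to 17.7 CPM in S727A and 2.2 to 4.21 CPM in WT. Jchain, the joining chain of secreted antibodies, was the only gene of the marker lists to pass in edgeR (adjusted p = 0.0287), at 14.1, 6.67, 14.5 and 5.9 CPM in S727A 1 to 4, against 0.19, 1.22, 0.37 and 1.09 CPM in WT 1 to 4. Jchain made up most of the B and plasma cell sum in each S727A library and a minor part of it in WT. It was named after its values were seen.

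**Figure D3:**
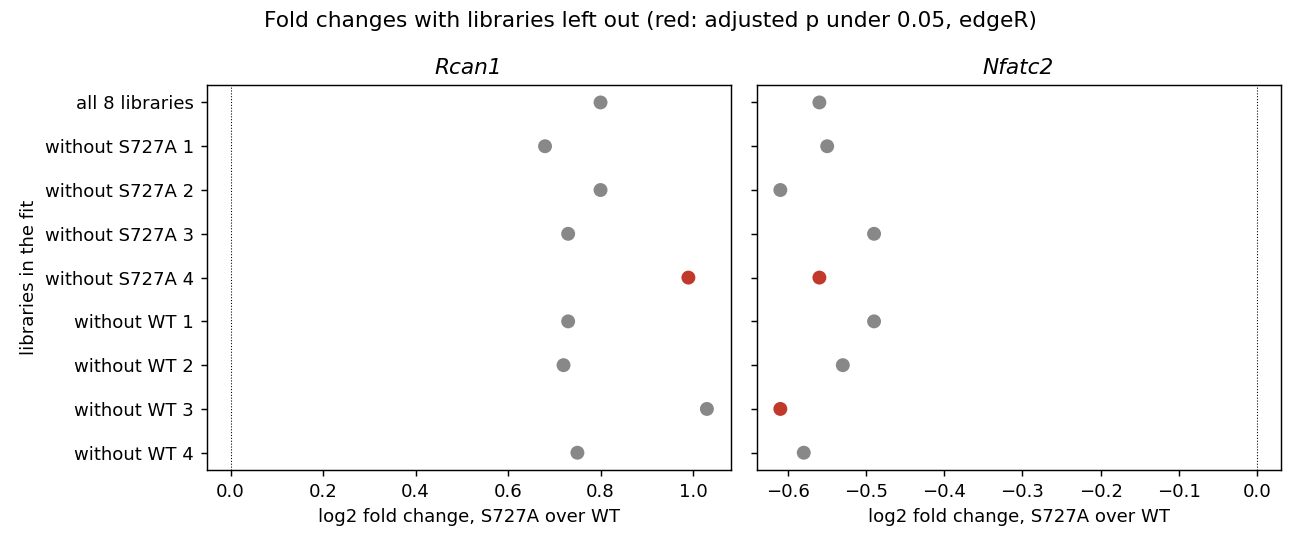
Log2 fold change of S727A over WT for Rcan1 (left panel) and Nfatc2 (right panel) with all 8 libraries and with each left out, red where the edgeR adjusted p was under 0.05. Rcan1 ranges from 0.68 to 1.03 and Nfatc2 from -0.61 to -0.49 with a library left out, and no sign changes.

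The other NFAT genes had intervals that include 0. Nfatc1 (gene 18018, chromosome 18), known for its role in the endocardium and heart valves, averaged 40.8 ± 2.45 CPM in S727A hearts and 39.3 ± 3.13 CPM in WT hearts (SD, n = 4), or 0.05 as log2 fold change with an interval from -0.14 to 0.25. Nfatc3 (gene 18021, chromosome 8), which mediates calcineurin-driven growth of heart muscle in mice, was at 39.0, 44.3, 45.3 and 47.4 CPM in S727A 1 to 4, against 46.6, 49.2, 46.4 and 48.0 CPM in WT 1 to 4. Nfatc3 overlaps Esrp2 on the opposite strand, and whether counting used strand is not stated. S727A 4 lay within the WT range, and the log2 fold change was -0.11 with an interval from -0.30 to 0.07. Nfatc4 (gene 73181, chromosome 14), known for its partnership with Gata4 in heart muscle, had the lowest level, with a mean of 10.2 ± 2.14 CPM in S727A against 9.22 ± 1.26 CPM in WT. Its log2 fold change of 0.15 rested on S727A 1, the highest library at 13.3 CPM, and was -0.0021 without it. Adjusted p in edgeR were 0.795, 0.518 and 0.679 for Nfatc1, Nfatc3 and Nfatc4.

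As shares of the summed FPKM of the 4 NFAT genes, Nfatc2 held 20.8 ± 0.76% in S727A and 25.8 ± 2.42% in WT, and Nfatc1 held 37.5 ± 0.84% in S727A and 34.1 ± 2.46% in WT (SD, n = 4). The Nfatc2 share was 20.07% to 21.48% in S727A and 23.32% to 28.92% in WT, so it did not overlap. Their summed level was 24.1 ± 1.12 FPKM in S727A and 26.01 ± 0.82 FPKM in WT.

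The deposited counts and FPKM together carry a further measure, the gene length that the authors divided by. Count over FPKM, scaled between libraries by its median over 7141 genes with at least 5 FPKM and 50 counts in every library, gives an implied length in nucleotides. Its median coefficient of variation over the 8 libraries was 0.5% among those 7141 genes, and for Ppp3r1 it was 0.08%, at 2770 to 2775 nucleotides. The sources used here do not name the counting tool, and whether this length follows the transcripts present was not tested. The absolute scale is approximate, since Ppp3r1 is annotated at 2859 nucleotides in GENCODE M21.

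For Rcan1 the implied length was 2182, 2180, 2169 and 2219 nucleotides in S727A 1 to 4, against 2246, 2232, 2200 and 2225 in WT 1 to 4. The 4 libraries with the highest Rcan1 levels (S727A 1 to 3 and WT 3) had the 4 shortest lengths. Of those 7141 genes, 74.3% had a smaller coefficient of variation than the 1.26% of Rcan1, and the 90th percentile was 2.727%. GENCODE M21 gives 5 coding transcripts of Rcan1, with 2190 nucleotides from the downstream start shown above, 2319 and 2324 from the upstream one, and 2222 and 1506 from 2 other starts. Implied length alone cannot tell these apart. The group means, 2188 in S727A and 2226 in WT, differed by -1.71% with overlap (exact permutation test, two-sided p = 0.0571, smallest possible 0.0286). Level and implied length come from the same count and FPKM, and a length difference of this size could move the FPKM by only a few percent.

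For Nfatc2 the implied length was 4646, 4978, 4571 and 4862 nucleotides in S727A 1 to 4, against 5535, 5416, 5179 and 5192 in WT 1 to 4. All S727A values were below all WT values, and the group means of 4764 and 5331 nucleotides differed by -10.62% (exact permutation test, two-sided p = 0.0286, the smallest that 4 against 4 allows, not adjusted for the 9 genes examined). Among 9390 genes with at least 2 FPKM and 50 counts in every library, 0.351% had an implied length at least 5% shorter in S727A with no overlap between groups, limits that were chosen after the values were seen. Coding transcripts of Nfatc2 fall into long forms of 6637 and 6828 nucleotides and short forms of 2310, 2369 and 2742 nucleotides. The long forms and the form of 2310 nucleotides start at or near the downstream site. The forms of 2369 and 2742 nucleotides start at the upstream site. Short coding forms thus come from either site, and long ones from the downstream site alone. FPKM divides by this length, and the difference between genotypes was -0.41 on log2(FPKM + 0.1) (limma trend adjusted p = 0.122).

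For the remaining 7 genes the implied lengths of the groups overlapped. Nfatc4 averaged 3669 nucleotides in S727A and 3816 in WT, and Ppp3cb 3234 in S727A and 3287 in WT, with coefficients of variation of 3.71% and 2.05% over all libraries. Rcan2, Ppp3ca, Nfatc1 and Nfatc3 stayed within 0.66%.

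**Figure D4:**
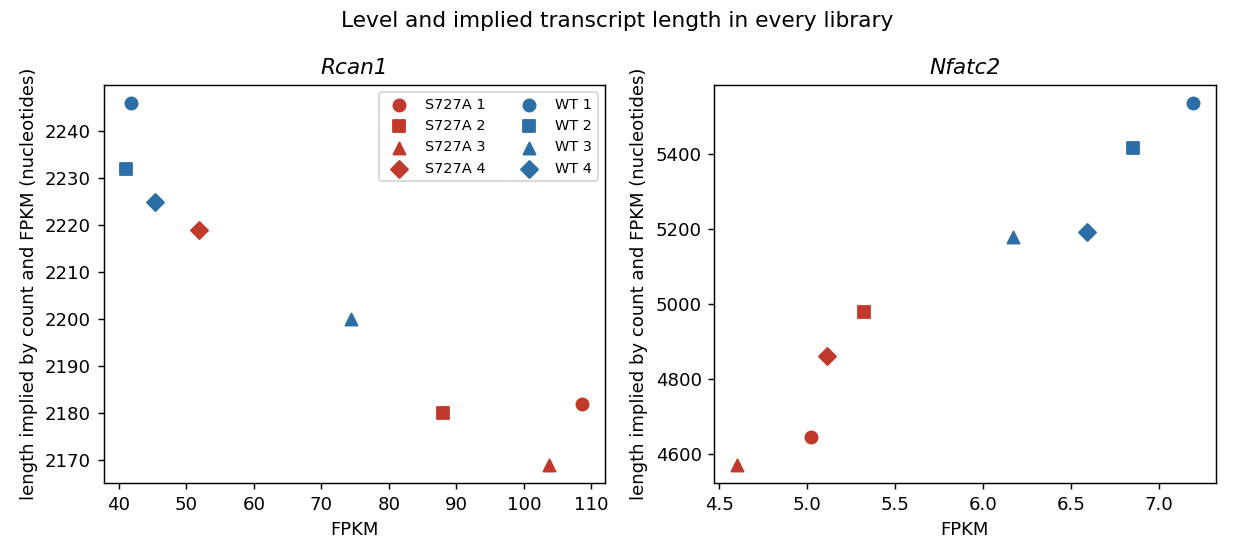
Implied length in nucleotides against FPKM, 1 point per library, for Rcan1 (left panel) and Nfatc2 (right panel), with S727A in red and WT in blue. For Rcan1 the 4 libraries of highest FPKM have the 4 shortest lengths (2169 to 2200 nucleotides), and for Nfatc2 the 4 S727A libraries lie at lower FPKM and shorter length (4571 to 4978) than the 4 WT libraries (5179 to 5535).

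Other genes of the pathway were taken from lists of 50 genes, of which 46 were tested. In edgeR 0 of the 46 passed, where 0.146% of all tested genes did. At an unadjusted p under 0.05, 7 were higher and 4 lower (8.97% and 8.79% of all tested genes). DESeq2 passed 1, Lmcd1, where it passed 4.11% of all genes, and limma voom passed 0, with 0.0462% of all genes. Their median log2 fold change was 0.01, with 24 above 0 and 22 below. The groups did not overlap for 3 of them (Lmcd1 higher, Ep300 and Gsk3b lower), where 8.43% of all tested genes were so separated.

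Among 14 proteins that bind, anchor or inhibit calcineurin, 13 were tested, with 8 above 0 and a median of 0.16. Lmcd1, a LIM-domain protein reported to raise calcineurin signalling in mouse heart, was at 116, 55.3, 62.7 and 44.98 CPM in S727A 1 to 4, against 44.2, 29.8, 44.6 and 35.1 CPM in WT 1 to 4. The groups did not overlap, as in 4.07% of tested genes for this direction, though S727A 4 exceeded WT 3 by under 1 CPM. Its log2 fold change of 0.86 ± 0.29 (SE) did not pass in edgeR (adjusted p = 0.196) but passed in DESeq2 (adjusted p = 0.0255). Without S727A 1, its highest library, it was 0.50 (edgeR adjusted p = 0.275). Ppia, encoding cyclophilin A, which binds calcineurin in the presence of cyclosporin, differed by 0.32 ± 0.11 on the log2 scale (SE), with an edgeR adjusted p of 0.173. Of the family relatives, Rcan3 had a log2 fold change of 0.14 ± 0.10 and Nfat5, which calcineurin does not regulate, one of 0.15 ± 0.10 (SE).

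Calcium entry and store-sensing genes (8 genes, 6 tested, 1 above 0, median -0.14) included Stim1, the store sensor, with a log2 fold change of -0.16 ± 0.09 (SE). Kinases that return NFAT to the cytoplasm (10 genes, all tested, 4 above 0, median -0.01) included Mapk14, the p38 alpha kinase, at -0.25 ± 0.10 and Csnk1a1, casein kinase 1 alpha, at 0.20 ± 0.09 (log2 fold change, SE). Nuclear partners of NFAT (7 genes, all tested, 2 above 0, median -0.20) included the acetyltransferase genes Ep300 at -0.36 ± 0.11 and Crebbp at -0.27 ± 0.10 (log2 fold change, SE). Ep300 was at 74.8, 83.9, 77.8 and 102.4 CPM in S727A 1 to 4, against 111, 119, 102.5 and 103 CPM in WT 1 to 4, with S727A 4 just below WT 3. It did not pass in edgeR (adjusted p = 0.138). It passed without S727A 4 (edgeR adjusted p = 0.0231), where 4.71% of all genes passed. It also passed without S727A 4 and WT 4, which lacked Y-linked reads (edgeR adjusted p = 0.0377). In that fit 107 genes passed as higher and 135 as lower. The other single omissions gave edgeR adjusted p from 0.0985 to 0.321 for Ep300.

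Genes reported to respond to calcineurin and NFAT in muscle or heart (7 genes, all tested) all had log2 fold changes above 0. Their median was 0.85, against 0 for all tested genes. In edgeR 0 passed, while 2 were higher at an unadjusted p under 0.05, against 8.97% of all tested genes. The sizes were not uniform, with Adssl1 at 0.02 (interval from -0.22 to 0.26) and Edn1 at 0.23 (-0.24 to 0.7). Acta1 at 0.52 (-1.22 to 2.27), Myh7 at 0.85 (-0.65 to 2.36) and Nppa at 0.89 (-0.29 to 2.07) also had intervals that include 0. Only the intervals of Nppb (0.25 to 2.45) and Ptgs2 (0.27 to 1.77) lay above 0. Nppb, the natriuretic peptide of loaded ventricles, was at 1089, 1002, 1052 and 419 CPM in S727A 1 to 4, against 273, 154, 562 and 408 CPM in WT 1 to 4. As for Rcan1, S727A 1 to 3 were the highest libraries, WT 3 came next and S727A 4 was below WT 3. Ptgs2, encoding cyclooxygenase 2, differed by 1.02 ± 0.34 on the log2 scale (SE), with an edgeR adjusted p of 0.171, and by 0.68 without S727A 3. Myh7, the slow myosin, did not share the Rcan1 pattern, with WT 2 at 5935 CPM above 3 of the S727A libraries (4320 to 4701 CPM).

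**Figure D5:**
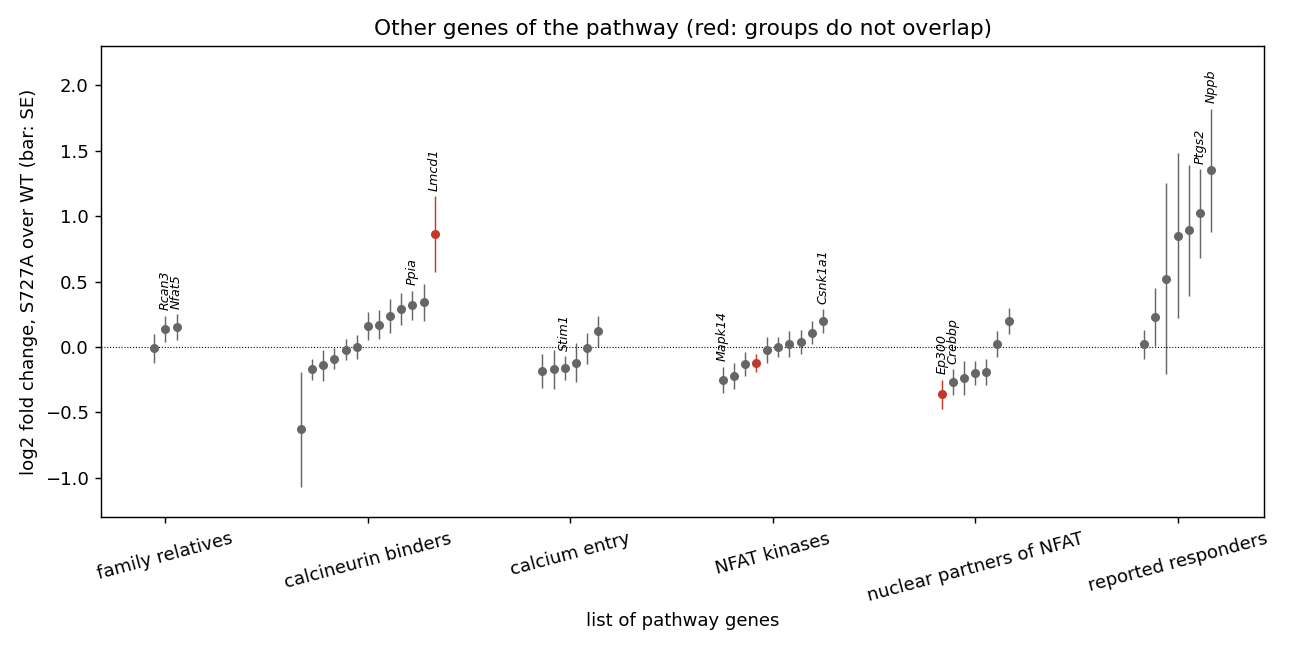
Log2 fold change of S727A over WT for the 46 tested pathway genes by list, with bars of 1 SE and red points where the groups do not overlap. Named points are genes given in the text, and Nppb at 1.35 and Ptgs2 at 1.02 are the highest.

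Genes whose log2 CPM profile over the 8 libraries was most like each of the 9 genes were looked up among 9587 genes with a mean log2 CPM of at least 3. The correlations describe the 8 libraries, which share depth and genotype, and the best of so many genes is high by selection. Closest to Rcan1 were Amot (Pearson r = 0.988), Pebp1 (0.98) and Ddit4 (0.979), and with genotype means removed these were 0.987, 0.959 and 0.957. Amot encodes angiomotin, a partner of the Hippo pathway, and Ddit4 an inhibitor of mTORC1. Closest to Nfatc2 were Kcnj8 (0.98), Nr1h3 (0.971) and Usf2 (0.967), with 0.887, 0.837 and 0.914 once genotype means were removed. Kcnj8, a potassium channel gene, is a pericyte marker in the list above, and Nr1h3 encodes the sterol sensor LXR alpha. The highest r was 0.951 for Rcan2 (Hsd11b1), 0.969 for Ppp3ca (Aplp2), 0.966 for Ppp3cb (Gbe1), 0.947 for Ppp3r1 (Chtop), 0.959 for Nfatc1 (Emc6), 0.971 for Nfatc3 (Igdcc4) and 0.952 for Nfatc4 (Rasa4).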

How the data were processed

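Titles in the labels gave each library its genotype and number. The deposited table held an expected count per gene and library, not normalized, per the file headers (between 6.06% and 7.62% of a library's entries were not whole, tolerance 1e-06), and FPKM values made by the authors. Its log2 ratio, p-value and q-value columns are the authors' own, and the sources used here do not name the tool. Per the submitters' processing notes the tools were FastQC, HISAT2 and Bowtie2 and the build GRCm38.p6, with no roles or versions, and the labels' protocols name Trizol and stranded mRNA libraries.

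Counts were rounded and filtered by edgeR's filterByExpr (minimum count 10, minimum total 15), leaving 12998 genes. The comparison used edgeR 4.0.16 in R 4.3.3 (legacy mode, TMM scaling, robust quasi-likelihood dispersion, genotype as the single term) with Benjamini-Hochberg adjustment over all tested genes; standard errors came from the F statistic. CPM values are TMM-scaled, with a prior count of 2 on the log2 scale. The procedure was tested on simulated data. Counts of the 9 genes ran from 83 (Nfatc4, WT 1) to 9256 (Rcan2, S727A 1). All 28 pairs of libraries differed by at least 9.13 in chi-square per degree of freedom, so none repeats another.

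The 9 genes and all lists were chosen with earlier results of these data known. Named were the 9 genes, from each pathway list any gene that passed and otherwise the 2 of smallest unadjusted p (for calcium entry, 1 of these is not reported here), and the 3 genes most like each of the 9 (1 printed for 7 of them). Ppp3r2, Myoz1, Trpc4 and Trpc6 were not tested, 1 of them because it is not listed in the table. Nppa, Myh7, Acta1, Edn1, Adssl1 and Gsk3b were named after their values were seen. The length measure was likewise added after seeing the data. Gene coordinates and transcript lengths came from GENCODE M21 (GRCm38), start regions from RefSeq (GRCm38.p6). Alternatives were RLE in place of TMM, dropping the low-count filter or tightening it (1 CPM or more in 4 libraries), DESeq2 1.42.0, limma 3.58.1 voom, edgeR without legacy mode, the replicate block, each library left out, a Y-linked covariate, fits without libraries lacking Y-linked reads or holding airway transcripts, and limma trend on log2 FPKM with pseudocounts of 1 and 0.1.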

Additional observations from a re-analysis of the deposited data

Results flagged for a closer look

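Rcan1 in WT 3, at 159.92 CPM, stood apart from the other 3 WT libraries (91.94 to 99.3 CPM), with a gap of 0.892 of the group's range against Dixon's 95% critical value of 0.829. Of 18 groups of 4 examined (9 genes in 2 genotypes) this was the only one, and chance alone flags about 1 in 20. WT 3 was also the WT library with the highest Nppb (562.03 CPM) and fibroblast marker sum (2950 CPM).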

How the results depend on the processing

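Over 21 alternatives the log2 fold change of Rcan1 ran from 0.62 to 1.03 and passed in 2, and that of Nfatc2 from -0.61 to -0.36 and passed in 3. Of the 9 genes, only Nfatc4 changed sign: with a library left out it ran from -0.0021 (without S727A 1) to 0.24, and it was -0.01 without the WT libraries with airway transcripts. Numbers of genes passing were 0 higher and 0 lower for the 9 genes, against 1 and 1 in DESeq2 and 0 to 1 each with a library left out. For pathway genes they were 0 and 0, against 1 higher in DESeq2, 1 lower without the libraries lacking Y-linked reads, and 0 to 1 lower with a library left out.

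Over all genes 6 passed as higher and 13 as lower. The counts were 286 and 248 in DESeq2, 0 and 6 in limma voom, 107 and 135 without the libraries lacking Y-linked reads, 0 and 0 without the WT libraries with airway transcripts, and 11 higher without a filter. On FPKM they were 2 and 8 (pseudocount 1), 3 and 7 (pseudocount 0.1), and 0 and 0 (all genes above 0). With a library left out they ran from 0 to 297 higher and from 0 to 320 lower. The causes were not tested.

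The replicate block gave 0 higher and 2 lower. Same-numbered libraries did not deviate together over all genes (correlations of -0.05, -0.1, 0.06 and 0.07 for pairs 1 to 4). The libraries lacking Y-linked reads, S727A 4 and WT 4, share a number. The titles do not say whether the numbers pair the samples, and correlations from so few libraries cannot settle it. The block changed no call among the 9 genes (Rcan1 0.79, Nfatc2 -0.56). At 4 libraries a group, the spread limits what can be detected: the 95% intervals of the 3 calcineurin subunits together span log2 fold changes from -0.35 to 0.23.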
